A study of Mus musculus with 6 samples.

Results

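The FoxO factors and the antiproliferative Btg/Tob genes were followed in 2 fractions of mouse hematopoietic stem cells. The genes were chosen by name, as every probe set of the array that its annotation assigns to Foxo1, Foxo3, Foxo4, Txnip, Ccng2, Btg1, Btg2, Btg3, Tob1 or Tob2 and to no other gene. Of these 10 genes 9 were found, with 25 probe sets, among 18193 genes with such a probe set. Btg3 has no probe set of its own in the annotation and is not reported here. The cells came from the bone marrow of male C57Bl/6 (CD45.1) mice, 10 weeks old, with no treatment named, and were sorted as Lineage-, Sca-1+ and c-Kit+. The fractions, Lower-SP and Upper-SP, differ in where the cells lay in the side population, a flow cytometry gate on cells that export a DNA-binding dye. Each fraction was measured on 3 arrays, each from a different pool of mice, and the mice within a pool cannot be told apart. The labels speak of 3 pools on separate days. They do not say whether the fractions share pools or whether a replicate number marks a day.

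FoxO proteins are forkhead transcription factors that insulin, cytokine and growth factor signaling shuts out of the nucleus through phosphorylation by AKT. In the nucleus they drive genes of cell cycle arrest, antioxidant defence, autophagy and apoptosis, and deletion of several FoxO genes together in mice depletes hematopoietic stem cells. Txnip, an arrestin-like protein that binds thioredoxin and limits glucose uptake, and Ccng2, an unconventional cyclin of resting cells, are known FoxO targets. Btg and Tob proteins slow proliferation, in part by recruiting the CCR4-NOT complex, which removes poly(A) tails from mRNA. Btg1 is a FoxO target as well, and Btg2 is a target of p53.

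The 4 genes with a probe set that differed between the fractions were Foxo1, Txnip, Btg1 and Btg2. The 250 bases before their transcription starts are printed to show which of them hold the FoxO element. They are RefSeq sequences of build GRCm38.p6, written 5′ to 3′ along the gene, and capitals mark the FoxO element GTAAACA on either strand and, in Txnip, a pair of CACGNG strings 5 bases apart, the arrangement through which glucose-responsive factors act on this gene.
Foxo1, chr3:52268087-52268336, plus strand: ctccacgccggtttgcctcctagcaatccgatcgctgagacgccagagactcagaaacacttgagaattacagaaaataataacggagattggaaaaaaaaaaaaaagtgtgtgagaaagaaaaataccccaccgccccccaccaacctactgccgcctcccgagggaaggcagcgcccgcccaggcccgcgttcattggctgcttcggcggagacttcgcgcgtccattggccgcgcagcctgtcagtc
Txnip, chr3:96557707-96557956, plus strand: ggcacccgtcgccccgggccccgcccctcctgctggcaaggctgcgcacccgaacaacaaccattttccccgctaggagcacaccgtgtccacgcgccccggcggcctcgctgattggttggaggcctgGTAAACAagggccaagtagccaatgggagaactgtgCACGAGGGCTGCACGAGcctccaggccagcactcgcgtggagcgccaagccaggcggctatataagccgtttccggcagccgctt
Btg1, chr10:96616751-96617000, plus strand: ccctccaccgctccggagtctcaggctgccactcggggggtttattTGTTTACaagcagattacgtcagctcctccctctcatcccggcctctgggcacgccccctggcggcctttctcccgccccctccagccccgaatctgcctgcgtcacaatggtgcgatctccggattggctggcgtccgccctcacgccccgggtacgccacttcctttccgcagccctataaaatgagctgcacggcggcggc
Btg2, chr1:134079156-134079405, minus strand: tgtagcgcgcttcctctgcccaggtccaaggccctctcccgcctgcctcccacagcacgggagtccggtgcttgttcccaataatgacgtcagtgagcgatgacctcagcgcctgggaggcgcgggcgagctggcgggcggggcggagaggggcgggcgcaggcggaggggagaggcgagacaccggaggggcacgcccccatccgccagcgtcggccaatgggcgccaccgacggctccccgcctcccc
The FoxO element lay in 2 of these promoters, those of Txnip and Btg1. In Txnip it began 121 bases before the start, and in Btg1 its reverse complement TGTTTAC began 204 bases before the start. Of 32851 windows of 300 bases (250 before and 50 after a start) in the RefSeq table, 3.65% held the element on either strand, against 2 of the 10 windows of the 9 member genes with an entry (Foxo4 not included). The Txnip pair reads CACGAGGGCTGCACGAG, begins 85 bases before the start, and is an arrangement that 0.0487% of all windows held. This motif was chosen after the Txnip sequence was seen, and it can overlap the E-box CACGTG. The E-box itself, in 7.15% of all windows, and the decamer repeat of the p53 response element, in 8.36%, were found in 0 member windows. A match is a string of letters in the window, and no binding was measured here.

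Values are log2 expression, with the group mean ± SD over 3 arrays, and differences are Lower-SP minus Upper-SP. A probe set was tested where 3 or more of the 6 arrays read above log2 4. It passed if its limma p, corrected with the Benjamini-Hochberg method across the 19613 tested probe sets, was under 0.05. Of the 25 member probe sets 17 were tested, at least 1 for each of the 9 genes, and the other 8 read at most 4.017 on any array. Of the 17, 3 were higher and 4 lower in Lower-SP, which is 41.2%, where 28.1% of all tested probe sets passed (10.7% higher, 17.5% lower). The median difference of the 17 was -0.01, against -0.14 for all tested probe sets. When each gene was read through its tested probe set of highest mean, 1 gene was higher (Foxo1) and 2 were lower (Txnip and Btg2) of 9, against 27.7% of all 9460 tested genes (7.05% higher, 20.7% lower). In 8 of the 17 probe sets the fractions did not overlap, as in 46.1% of all tested probe sets.

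**Figure D1:**
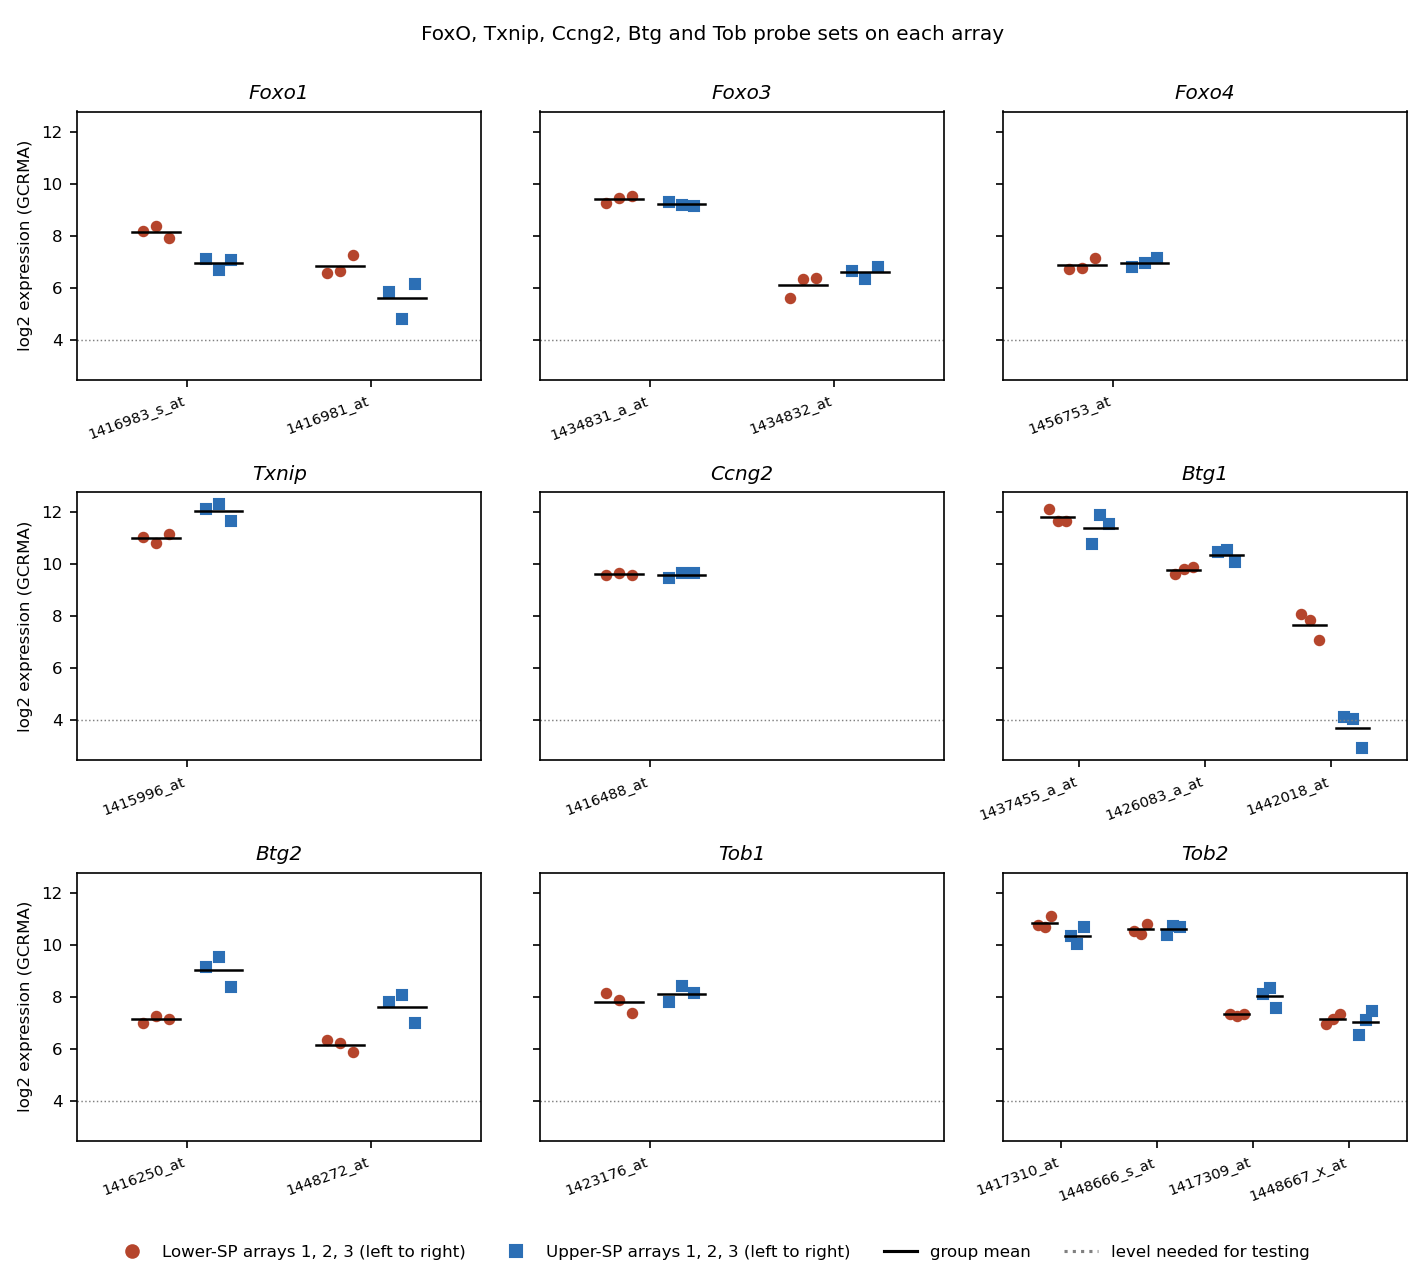
Log2 expression of the 17 tested member probe sets on each array, with Lower-SP as circles, Upper-SP as squares, each group's arrays in the order 1, 2, 3, the group mean as a bar and log2 4 dotted. Both Btg2 probe sets and the Txnip probe set lie lower in Lower-SP, both Foxo1 probe sets lie higher, and the 3 Btg1 probe sets go different ways.

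The arrays resembled each other more within a fraction (r = 0.952 to 0.991 across tested probe sets) than between fractions (0.911 to 0.938). Of the 13 stem cell markers that could be read, all 13 were bright enough to test, and 4 were lower and 0 higher in Lower-SP. Of the markers of mature cells, 8 of 10 T and NK cell genes (Cd3e, Cd4 and Cd8a among them), 7 of 13 B and plasma cell genes, 6 of 8 erythroid genes and 4 of 8 monocyte and macrophage genes stayed under log2 4 on every array. Several neutrophil genes were higher in Lower-SP, and the plasma cell gene Igha was lower. Over 15 neutrophil genes the level averaged 7.084, 6.699 and 4.711 in Lower-SP and 4.48, 4.638 and 3.952 in Upper-SP, with 4 of 8 tested genes higher and 1 lower, while Elane, Itgam, Cd177 and Fcnb stayed under log2 4 throughout. S100a8, a calcium-binding protein of neutrophils, read 13.2, 12.6 and 9.16 in Lower-SP and 7.62, 7.87 and 6.95 in Upper-SP. Igha, the heavy chain of the IgA antibody that plasma cells secrete, read 9.40, 8.99 and 4.702 in Lower-SP and 12.4, 12.6 and 11.3 in Upper-SP, a fall of 4.42 (adjusted p = 0.024), and its 2 other tested probe sets fell as well (4.19 and 3.70). It was the 1 B and plasma cell gene of 5 tested that passed, and the list averaged 3.24 to 4.55 in Lower-SP and 4.34 to 4.42 in Upper-SP. Of 9 megakaryocyte genes 7 were tested, with averages of 6.15 to 6.42 in Lower-SP and 5.79 to 6.14 in Upper-SP, and 2 were higher, Gp1bb and Itgb3. The tested genes of the remaining lists gave 2 lower of 2 for T and NK cells, 1 higher of 3 for monocytes and macrophages, and 0 of 2 for erythroid cells. S100a8 and Igha were both lowest on replicate 3 within each fraction. The part of any of these transcripts in the member results was not tested.

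Among the FoxO factors, Foxo1 was higher in Lower-SP at both tested probe sets, and Foxo3 and Foxo4 did not pass. Foxo1 is the FoxO factor best known from lymphocyte development and liver metabolism. Its brighter probe set, 1416983_s_at, read 8.18, 8.37 and 7.91 in Lower-SP and 7.09, 6.66 and 7.08 in Upper-SP. All 3 Lower-SP arrays lay above all 3 Upper-SP arrays, and replicate 3 was the lowest of the Lower-SP arrays. The difference was 1.21 (SE 0.22, 2.31-fold, adjusted p = 0.0087 by limma). In such bulk samples a larger share of cells with the transcript and more transcript per cell cannot be told apart. A second Foxo1 probe set, 1416981_at, read 6.58, 6.63 and 7.26 in Lower-SP and 5.85, 4.77 and 6.13 in Upper-SP, and here replicate 3 was the highest of the Lower-SP arrays. Its difference had nearly the same size, 1.24 (SE 0.39, adjusted p = 0.048), with no overlap between fractions. The call at the first probe set held without any single array, while the second was lost without any one of Lower-SP replicate 1 (1.36), 2 (1.34) or 3 (1.02) or of Upper-SP replicate 1 (1.37) or 2 (0.84). The remaining Foxo1 probe sets, 1416982_at and 1456529_at, were not above the level for testing in either fraction. Both tested probe sets and 1416982_at are annotated to the same expressed sequence tag, so the tested ones do not rest on separate sequences. Where in the Foxo1 locus this tag lies was not analysed here, and the values are those of probe sets.

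Foxo3, the FoxO factor whose loss alone impairs stem cell maintenance in mice, gave 2 tested probe sets with differences of opposite sign, neither of which passed. The brighter, 1434831_a_at, read 9.27, 9.46 and 9.53 in Lower-SP and 9.29, 9.17 and 9.15 in Upper-SP, a difference of 0.21 (95% interval -0.13 to 0.56, adjusted p = 0.31). The dimmer, 1434832_at, read 5.598, 6.32 and 6.35 in Lower-SP and 6.63, 6.33 and 6.81 in Upper-SP, a difference of -0.50 (-1.16 to 0.15, adjusted p = 0.22). In both the fractions overlapped. Foxo4, the X-linked family member, read 6.73, 6.74 and 7.15 in Lower-SP and 6.80, 6.95 and 7.15 in Upper-SP at 1456753_at, a difference of -0.10 (-0.62 to 0.43, adjusted p = 0.78) that turned to 0.05 with cyclic loess scaling. These intervals bound the differences and do not show that the levels were equal.

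Of the FoxO targets among the members, Txnip was lower in Lower-SP and Ccng2 did not pass. Btg1, also a target, had probe sets that went different ways and is given further below. Txnip read 11.05, 10.82 and 11.17 in Lower-SP and 12.13, 12.31 and 11.67 in Upper-SP at 1415996_at. The groups did not overlap, and Upper-SP replicate 3 lay nearest to Lower-SP. Txnip fell by 1.03 (SE 0.18, 2.04-fold, adjusted p = 0.0077), and it passed without any single array. Its other probe set, 1415997_at, read above log2 4 on 1 array and was not tested. Ccng2 read 9.57, 9.67 and 9.60 in Lower-SP and 9.49, 9.65 and 9.66 in Upper-SP. Its difference of 0.02 (95% interval -0.30 to 0.33, adjusted p = 0.94) had the smallest SE of the tested member probe sets, 0.14. With cyclic loess it was 0.23, still not passing.

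Btg2, the immediate early and p53-induced member of its family, fell most of the members. At 1416250_at it read 7.001, 7.27 and 7.13 in Lower-SP and 9.16, 9.53 and 8.38 in Upper-SP. The Lower-SP arrays were close together (7.14 ± 0.14) and the Upper-SP arrays spread (9.02 ± 0.58), with replicate 3 the lowest of them and still above every Lower-SP array. Btg2 fell by 1.89 (SE 0.30, 3.70-fold, adjusted p = 0.0054), rank 143 of 19613 by size of fall. The second probe set, 1448272_at, followed the same arrays, with 6.33, 6.24 and 5.88 in Lower-SP against 7.79, 8.05 and 7.0 in Upper-SP, and fell by 1.46 (SE 0.31, 2.76-fold, adjusted p = 0.014). Both Btg2 probe sets are annotated to a RefSeq mRNA of the gene. The first passed without any single array. The second was lost without Upper-SP replicate 1 (-1.38, adjusted p = 0.072) or 2 (-1.24, adjusted p = 0.054).

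Btg1, the closest relative of Btg2, has 3 tested probe sets that did not move together. The brightest, 1437455_a_at, read 12.13, 11.66 and 11.66 in Lower-SP and 10.77, 11.88 and 11.54 in Upper-SP. The fractions overlapped and its difference of 0.42 (95% interval -0.22 to 1.07, adjusted p = 0.28) did not pass. The second, 1426083_a_at, annotated to a cDNA, read 9.64, 9.81 and 9.91 in Lower-SP and 10.46, 10.55 and 10.08 in Upper-SP, with no overlap. It fell by 0.58 (SE 0.17, 1.49-fold, adjusted p = 0.037). That call was lost with each other scaling (-0.49 with centring, -0.41 with quantile normalization, -0.36 with cyclic loess) and without Lower-SP replicate 1 (-0.50) or 2 (-0.59) or Upper-SP replicate 1 (-0.53) or 2 (-0.48).

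The dimmest tested Btg1 probe set, 1442018_at, annotated to an expressed sequence tag, rose more than any other member probe set. It read 8.08, 7.84 and 7.09 in Lower-SP and 4.12, 4.06 and 2.91 in Upper-SP. Its Lower-SP arrays were all well above the level for testing, and its Upper-SP arrays were near or under it. The rise was 3.98 (SE 0.41, adjusted p = 0.0018), rank 8 of 19613. Since the Upper-SP mean lay under log2 4, each such array was set to 4, which makes the signal at least 12.2-fold higher in Lower-SP. It passed without any single array. Among 4080 genes measured by several tested probe sets, 143 (3.51%) held calls in both directions, and Btg1 is 1 of them. Where in the Btg1 locus this tag lies was not analysed here, so its value is that of a probe set and not a level of Btg1 mRNA.

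**Figure D2:**
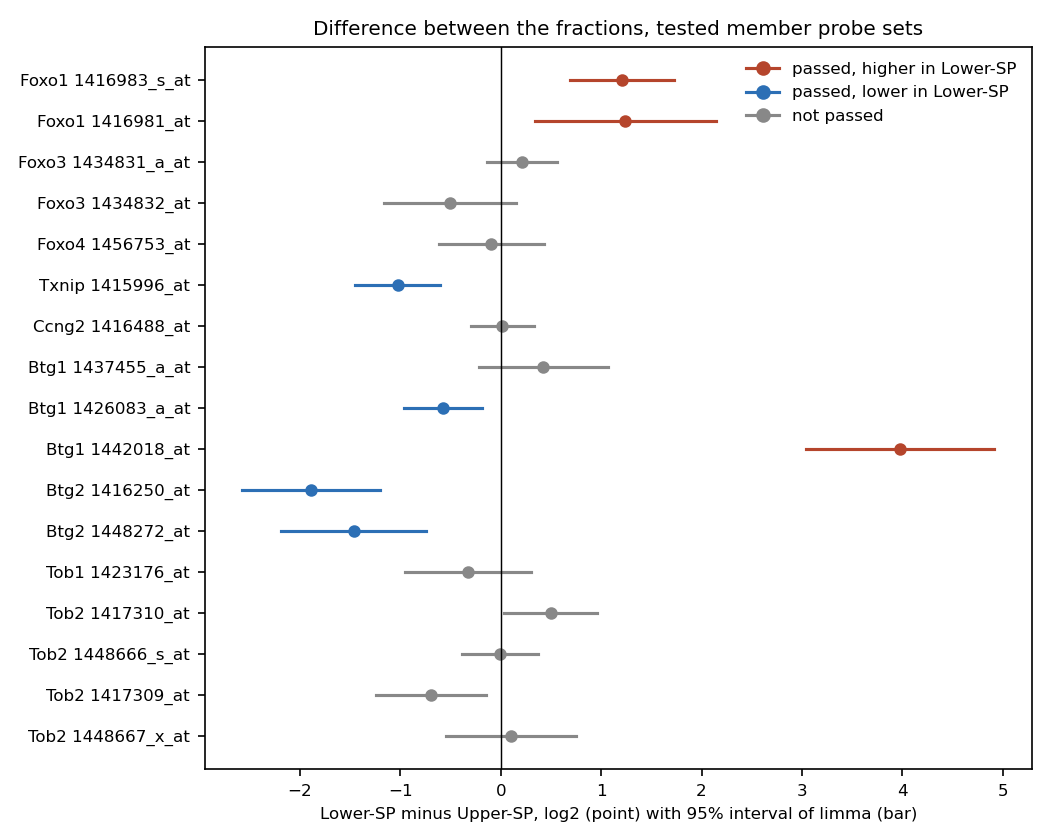
Difference between the fractions (Lower-SP minus Upper-SP, log2) for the 17 tested member probe sets, with the 95% interval of limma, which is not adjusted for the number of probe sets. The differences run from -1.89 at Btg2 to 3.98 at the Btg1 probe set 1442018_at, and 2 Tob2 intervals exclude 0 without passing after adjustment.

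The Tob genes, which carry the same antiproliferative domain as Btg1 and Btg2 with a longer tail that binds poly(A)-binding protein, had 0 of 5 tested probe sets that passed by limma (1 of Tob1, 4 of Tob2). Before adjustment 2 of the 5, both of Tob2, had p under 0.05, as had 8182 of all 19613 tested probe sets. Tob1 read 8.16, 7.86 and 7.36 in Lower-SP and 7.78, 8.43 and 8.14 in Upper-SP, with overlap and a difference of -0.32 (95% interval -0.95 to 0.31, adjusted p = 0.40). The Tob2 probe set of highest mean, 1417310_at, read 10.77, 10.68 and 11.12 in Lower-SP and 10.34, 10.04 and 10.69 in Upper-SP. Its difference was 0.50 (SE 0.20, adjusted p = 0.099). It passed in 4 of 19 alternative settings, among them cyclic loess (0.70) and without Upper-SP replicate 3 (0.66). The Tob2 probe set 1417309_at went the other way without overlap, with 7.34, 7.28 and 7.35 in Lower-SP and 8.12, 8.34 and 7.58 in Upper-SP. Its difference was -0.69 (SE 0.24, adjusted p = 0.064). This probe set also passed in 4 of the 19 settings, among them without Upper-SP replicate 3 (-0.91). The remaining Tob2 probe sets, 1448666_s_at and 1448667_x_at, differed by -0.01 and 0.11.

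Upper-SP replicate 3 took different places relative to Lower-SP at the member probe sets. It was the Upper-SP array nearest to the Lower-SP mean at both Btg2 probe sets, at Txnip, at Btg1 1426083_a_at and at Tob2 1417309_at. The same held at Foxo1 1416981_at and at Tob2 1417310_at and 1448666_s_at. At Btg1 1442018_at, Foxo4 and both tested Foxo3 probe sets it was the farthest. At the other tested member probe sets it lay between the other Upper-SP arrays in distance. How often it is the nearest over all tested probe sets was not computed, so its place is not read as a feature of the members. Without Upper-SP replicate 3 the differences were -2.21 and -1.77 for Btg2, -1.21 for Txnip and -0.72 for Btg1 1426083_a_at. With both arrays of number 3 left out, 9 member probe sets passed against 7, and 8331 of all 19613 tested probe sets against 5520. With replicate 3 as the only Lower-SP array, a fit that assumes this array varies like the others, the differences were -1.89 and -1.73 for Btg2, -0.87 for Txnip, 0.97 and 1.68 for Foxo1, and -0.45 and 3.39 for Btg1 1426083_a_at and 1442018_at. Of the member probe sets that passed with all arrays, only the last of these also passed in that fit. Fewer passed there over all tested probe sets as well.

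**Figure D3:**
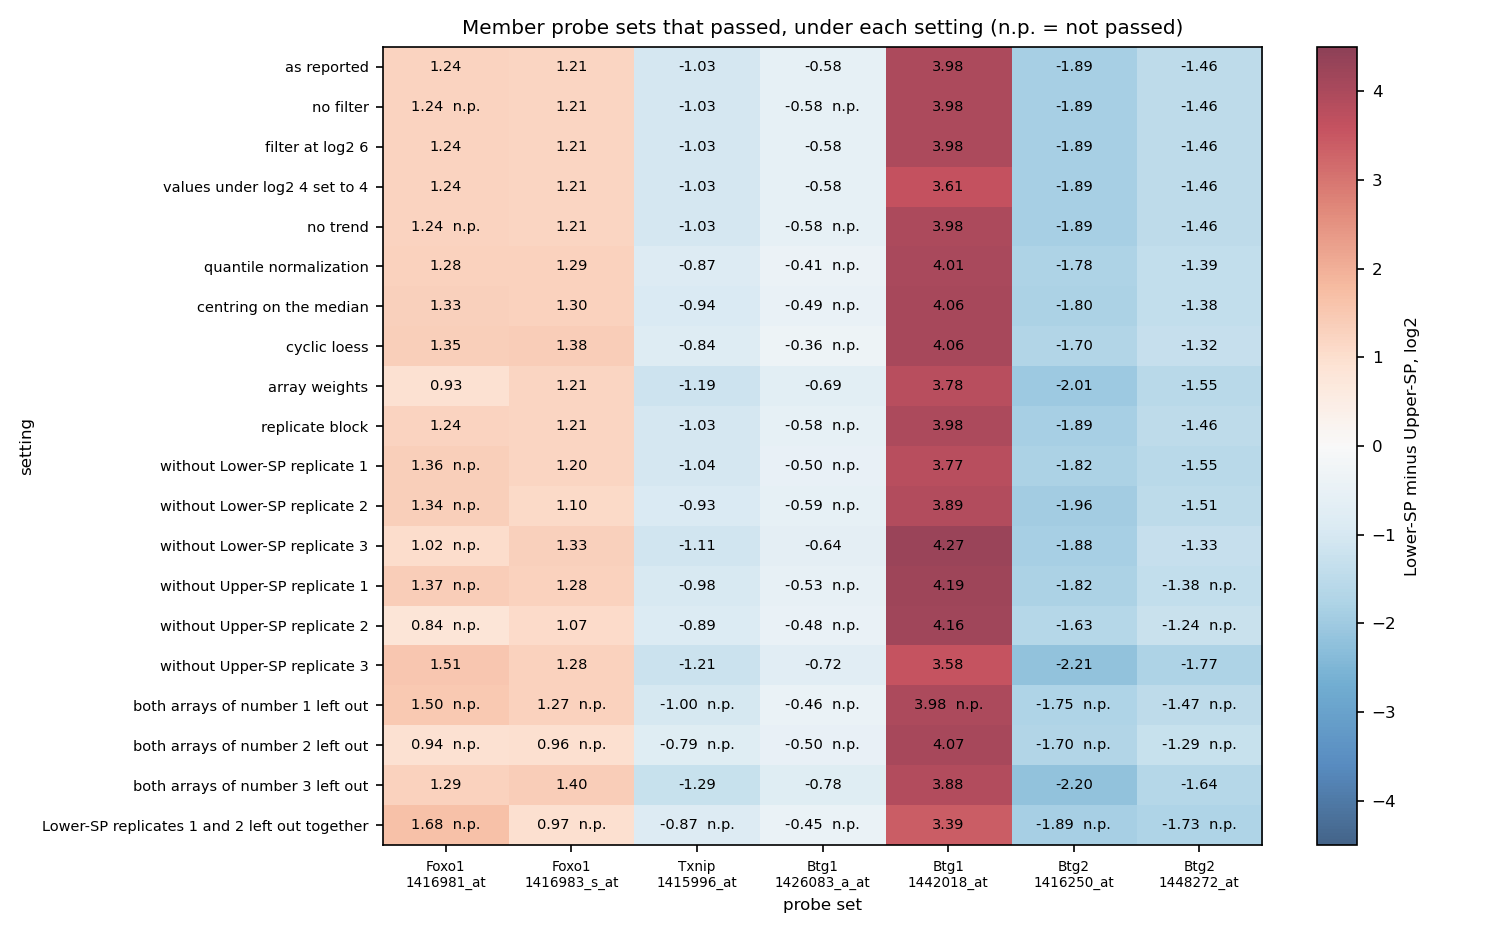
Differences (Lower-SP minus Upper-SP, log2) of the 7 member probe sets that passed, in columns, under each setting, in rows, with n.p. where the adjusted p did not pass. The sign of each of the 7 is the same in every row, and with both arrays of number 1 left out none passes.

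Genes around the members were read from lists of regulators, targets and partners, each gene through its tested probe set of highest mean over all arrays, kept when the scaling changed or arrays were left out. The balance of directions depends on the scaling: the median difference of all tested genes was -0.24 with the deposited scaling, where 25.4% of the genes that passed were higher, and -0.09 with cyclic loess, where 42.5% were. Counts with cyclic loess are therefore given beside the others. Those with the deposited scaling and all arrays are to be read beside the 27.7% of all tested genes that passed. The lists were chosen with earlier results of these data known, so setting them beside that share is a description and not a test. With cyclic loess 5003 of 19613 probe sets passed, against 5520. Fewer passed with replicate 3 as the only Lower-SP array, so counts there are not to be read beside the 27.7%.

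Of 33 tested FoxO regulators and cofactors 4 rose and 4 fell (24.2%; 6 and 2 with cyclic loess; 3 and 2 with replicate 3 as the only Lower-SP array). Their median, -0.02, became positive under each other scaling. Skp2, the F-box protein that marks FOXO1 and p27 for degradation, rose by 1.76 (SE 0.20, adjusted p = 0.0024), reading 9.17, 9.08 and 9.32 in Lower-SP against 7.36, 7.74 and 7.21 in Upper-SP. Of its 4 other tested probe sets 3 also passed, between 0.82 and 1.44, and one at 0.37 did not. Pik3r1, the regulatory subunit of the PI3-kinase upstream of AKT, rose by 1.40 (SE 0.18, adjusted p = 0.0033), with 1.201 at another probe set that did not pass. Pdpk1, the kinase that activates AKT, rose by 1.04 (SE 0.24, adjusted p = 0.019), lost without Upper-SP replicate 1 or 2. Another Pdpk1 probe set, at 0.69, did not pass. Sirt2, a deacetylase that acts on FoxO proteins, fell by 1.005 (SE 0.24, adjusted p = 0.019), lost without any one of replicates 1 and 2 of either fraction.

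The FoxO targets outside the members moved in both directions. Of 49 tested, 10 rose and 9 fell (38.8%; 12 and 6 with cyclic loess; 4 and 1 on Lower-SP replicate 3 alone). Their median, -0.04, became positive under each other scaling. Fbxo32, the atrophy-linked ubiquitin ligase atrogin-1, rose by 2.75 (SE 0.52, adjusted p = 0.0090), with 8.45, 8.07 and 7.74 in Lower-SP against 5.94, 6.01 and 4.07 in Upper-SP. Rictor, the defining subunit of mTORC2, rose by 2.53 (SE 0.23, adjusted p = 0.0012) at 1441753_at, by 2.24 at a second probe set, and differed by 0.39 at another that did not pass. S1pr1, the sphingosine-1-phosphate receptor that guides lymphocyte exit, rose by 2.29 (SE 0.23, adjusted p = 0.0018), with 7.03, 7.47 and 7.19 against 4.94, 5.12 and 4.75. Bbc3, the proapoptotic PUMA, fell by 1.67 (SE 0.40, adjusted p = 0.020), with 6.86, 6.75 and 5.42 against 8.24, 8.09 and 7.68, and was lost without Upper-SP replicate 1 or 2. On Lower-SP replicate 3 alone Fbxo32 did not pass, whereas Rictor, S1pr1 and Bbc3 did.

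Partners of Btg and Tob in deadenylation and mRNA decay also went both ways, 4 of 29 up and 6 down (34.5%; 6 and 3 with cyclic loess; 3 and 0 on Lower-SP replicate 3 alone). Their median was -0.16. Tut4, a terminal uridylyltransferase that tags deadenylated mRNA, rose by 1.83 (SE 0.13, adjusted p = 0.0010), reading 11.48, 11.45 and 11.23 in Lower-SP against 9.53, 9.63 and 9.49 in Upper-SP. Its 4 other tested probe sets passed as well, with rises of 1.51 to 2.49. Dcp1a, a decapping cofactor, rose by 1.59 (SE 0.35, adjusted p = 0.015), lost without Upper-SP replicate 1 or 2. Cnot4, the ubiquitin ligase of the CCR4-NOT complex, rose by 1.56 (SE 0.23, adjusted p = 0.0044), while its other 4 tested probe sets, from -0.003 to 0.77, did not pass. Pan2, the catalytic subunit of the PAN2-PAN3 deadenylase, fell by 1.43 (SE 0.32, adjusted p = 0.015), with 7.34, 7.20 and 8.32 against 9.22, 9.20 and 8.74, and was lost without any one of replicates 1 and 2 of either fraction.

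Of 15 tested genes around Txnip 3 rose and 5 fell (53.3%; 3 and 3 with cyclic loess; 2 and 2 on Lower-SP replicate 3 alone). Their median was -0.43. Txnrd2, the mitochondrial thioredoxin reductase, fell by 1.18 (SE 0.17, adjusted p = 0.0041), with 8.19, 8.36 and 8.60 in Lower-SP against 9.54, 9.53 and 9.61 in Upper-SP, though its other probe sets, at 0.03 and 0.40, did not pass. Txn2, mitochondrial thioredoxin, fell by 0.92 (SE 0.17, adjusted p = 0.0090), and its 2 other tested probe sets fell by 1.06 and 0.77. Nedd4, a ubiquitin ligase, fell by 0.88 at its probe set of highest mean, while another of its probe sets rose by 0.86 and one more, at -0.40, did not pass. Arrdc3, an arrestin relative of Txnip, rose by 0.89 (SE 0.23, adjusted p = 0.024), lost without Lower-SP replicate 1 or 2 or Upper-SP replicate 1. Nedd4 and Txn2 were lost without Upper-SP replicate 1.

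Of 22 tested G1 cell cycle genes and cyclin G relatives 0 rose and 3 fell (13.6%; 1 and 3 with cyclic loess; 1 and 3 on Lower-SP replicate 3 alone). Their median was -0.12, and 0.05 with cyclic loess. Ppp2r5c, a phosphatase subunit of the family that G-type cyclins bind, fell by 1.04 (SE 0.19, adjusted p = 0.0088), with its 5 other tested probe sets between -0.73 and -0.04 and not passing. Ccnd1, cyclin D1, fell by 0.88 (SE 0.21, adjusted p = 0.021), with -0.11 and 0.30 at other probe sets that did not pass. Cdk4, the kinase of D-type cyclins, fell by 0.64 (SE 0.15, adjusted p = 0.018), and its other 2 tested probe sets fell by 0.86 and 0.91. Ccnd1 and Cdk4 were lost without any one of replicates 1 and 2 of either fraction, and Ppp2r5c without Upper-SP replicate 1. Mki67, the proliferation antigen Ki-67, read 11.23, 10.86 and 8.73 in Lower-SP against 9.61, 9.61 and 9.35 in Upper-SP (difference 0.75, adjusted p = 0.36).

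**Figure D4:**
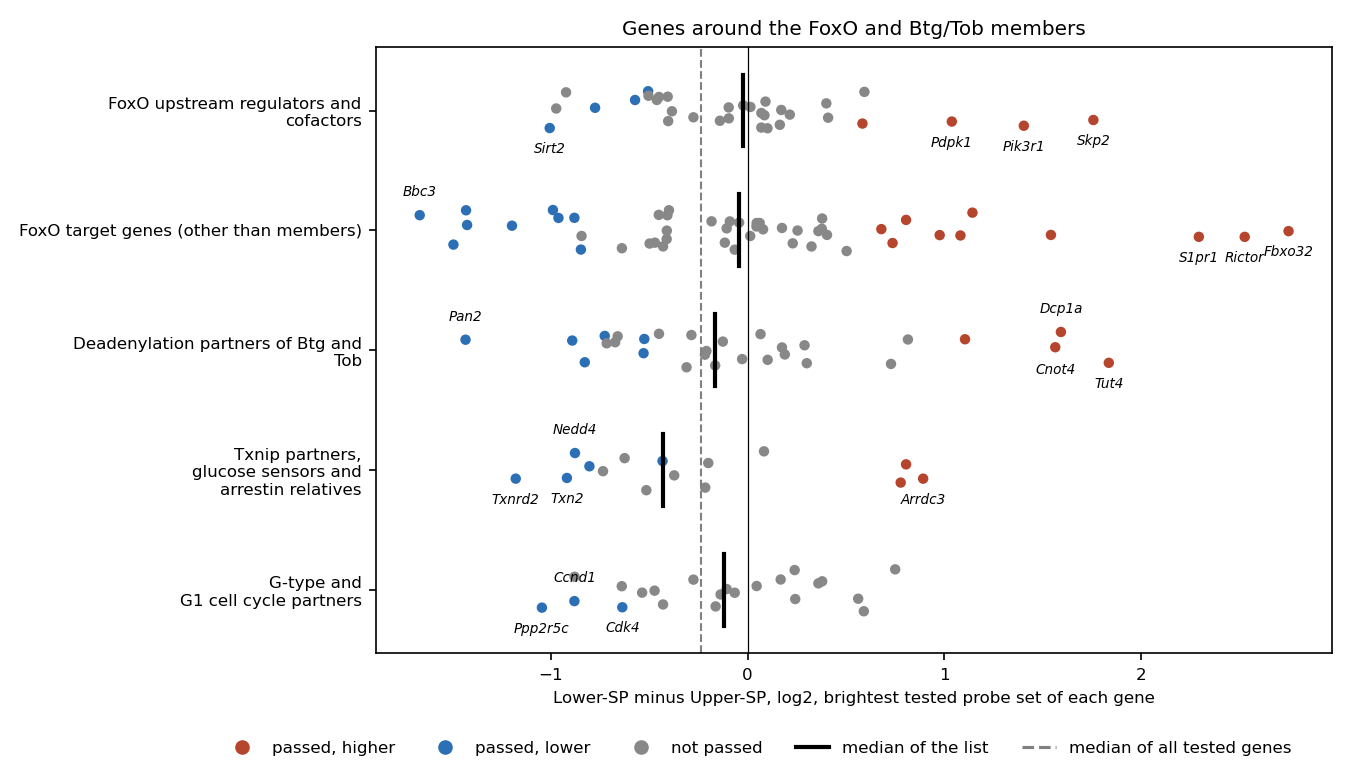
Difference between the fractions (Lower-SP minus Upper-SP, log2) for each tested gene of 5 lists around the members, coloured by whether it passed, with the median of each list as a black bar and the median of all tested genes (-0.24) dashed. Genes that passed lie on both sides of 0 in 4 of the lists, and in the G1 list only on the lower side.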

How the data were processed

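RNA of 6 samples was measured on Affymetrix mouse arrays after amplification and biotin labeling. The deposited values are log2 expression that the authors made with GCRMA, per the submitters' processing notes, which name GCOS 1.0 and GCRMA. GCRMA corrects background by probe sequence and normalizes the arrays to each other. The sources used here name no genome build for the probes.

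Probe sets were named from the supplied array annotation (34945 of 45037 carry 1 symbol), and all 25 member symbols matched current RefSeq records by Entrez ID. Fractions were compared on all arrays with limma 3.58.1 in R 4.3.3 (lmFit, eBayes with trend, two-sided, prior df 3.80), without a replicate block. P-values measure the spread between pools, and precision is limited by having 3 arrays a fraction. In a simulation of 19613 probe sets with 200 changed, 24% of true changes of log2 1 and 77% of log2 2 were found. Of its 111 calls 10 were false. Far more probe sets passed in the data (5520). The rates depend on the share that changed, so they do not measure the sensitivity of the comparison here.

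Members and lists were chosen with earlier results of these data known. The text names all members and, from each list, up to 4 passing genes with the largest change. Promoters were searched on both strands. The planned comparison of proteins was not run. Alternatives were other filters, a floor at log2 4, no trend, other scalings, array weights, a replicate block, other probe sets for a gene, a promoter window before the start only, and arrays left out.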

Additional observations from a re-analysis of the deposited data

How the results depend on the processing

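With no filter 2931 of all probe sets and 22 list genes passed, against 5520 and 46 (the list genes counted once each), and with array weights 10728, 85 and 5 member genes against 3. With both arrays of number 1 left out, limma called 0 probe sets, 0 member probe sets, 0 member genes and 0 list genes, with 4667, 6, 3 and 36 at an unadjusted p under 0.05. With number 2 left out it called 202, 1, 0 and 4 (5066, 6, 3 and 36 unadjusted), and with number 3 left out 8331 probe sets and 69 list genes. With replicate 3 as the only Lower-SP array it called 2715, 1, 0 and 20 (6872, 7, 4 and 45 unadjusted). Leaving out 1 array at a time gave 1666 to 6397 probe sets, 4 to 9 member probe sets, 3 to 4 member genes and 8 to 55 list genes; the lowest counts were without Upper-SP replicate 1. The member probe sets fell to 4 without Upper-SP replicate 1 or 2. The cause of these differences was not tested. The 7 member probe sets that passed kept their sign under all 19 alternatives. Btg1 1442018_at passed in 18 of them, Btg2 1416250_at, Txnip and Foxo1 1416983_s_at in 16, Btg2 1448272_at in 14, Foxo1 1416981_at in 9 and Btg1 1426083_a_at in 6. The labels do not say whether a number marks the same pool or day in both fractions. Deviations from the group means correlated at -0.051, -0.029 and -0.023 between same-numbered arrays, which cannot exclude such pairing. With a replicate block 4180 probe sets, 6 member probe sets, 3 member genes and 33 list genes passed. Of the members that passed, Btg1 1426083_a_at was not called with the block (adjusted p = 0.081). Cyclic loess gave 2687 higher and 2316 lower probe sets against 2090 and 3430, and 4 higher and 3 lower member probe sets against 3 and 4. The promoter count, 2 windows with the FoxO element, was the same before the start only. Probe sets under log2 4 carry no measured order, which limits the Upper-SP level of Btg1 1442018_at.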

Other observations

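Other forkhead genes, listed by symbol after the member values were seen, moved in both directions. Of 38 in the annotation 13 were tested, Foxo1, Foxo3 and Foxo4 included, and 3 were higher and 1 lower in Lower-SP (30.8%, against 27.7% of all tested genes), with a median of 0.34 against -0.24. Foxn2 read 8.03, 7.78 and 8.84 in Lower-SP and 6.36, 6.17 and 6.65 in Upper-SP, and rose by 1.82 (SE 0.31, adjusted p = 0.0067 by limma), with 1.89 at a second probe set that also passed. Foxj3 read 9.79, 9.28 and 9.93 in Lower-SP and 8.13, 8.07 and 8.02 in Upper-SP, and rose by 1.59 (SE 0.20, adjusted p = 0.0032). Foxn3, a checkpoint-linked forkhead repressor, fell by 0.64 (SE 0.15, adjusted p = 0.020) at its probe set of highest mean, a call lost with cyclic loess and without any one of replicates 1 and 2 of either fraction. Its other probe sets, at -0.41, -0.20 and 1.04, did not pass.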
